A study of Homo sapiens with 6 samples.

Results

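The 10 genes described here encode the core proteins that load and use small RNAs in human cells. They are the Argonautes AGO1, AGO2, AGO3 and AGO4, the TNRC6 scaffolds TNRC6A, TNRC6B and TNRC6C, the nuclease DICER1, and its partner proteins TARBP2 and PRKRA. They were matched by gene name in the authors' annotation, and all 10 were found, each with a single probe set, among 39261 named probe sets. RNA levels were measured on Clariom D arrays, which hybridize labelled copies of RNA to short probes. The cells were MIA-PaCa2, a human pancreatic cancer line. Lipofection was used to deliver siH19-2, a small interfering RNA (siRNA) against the long noncoding RNA H19, or the AllStars Negative Control siRNA (NC), and 3 arrays were made of each. Every array therefore came from transfected cells, and untransfected cells were not analysed here. The methods give 50 nM siRNA for 24 h, whereas the labels give 20 µg of each siRNA.

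Small RNA duplexes are cut from longer precursors by Dicer, which works with the double-stranded RNA-binding proteins TARBP2 and PRKRA. A synthetic siRNA needs no such cut and is loaded directly into an Argonaute protein, whose guide strand then finds matching RNAs. Human AGO2 is the Argonaute best known for cutting a fully matched target. The TNRC6 proteins, the mammalian relatives of fly GW182, bind Argonautes and recruit the CCR4-NOT and PAN2-PAN3 deadenylases, which shorten the poly(A) tail of partly matched messages before they are decapped and degraded.

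All values are log2 signals that had been normalized between arrays by the authors. Over all named probe sets, arrays of the same siRNA correlated at 0.993 to 0.995 and arrays of different siRNAs at 0.991 to 0.993. H19 averaged 7.10 ± 0.018 in siH19-2 cells and 7.40 ± 0.038 in NC cells (SD, n = 3 each), a difference of -0.30 (SE 0.036, adjusted p = 0.012). A gene was called changed where limma's test gave an adjusted p under 0.05 (Benjamini-Hochberg, over all named probe sets). By that rule 2067 probe sets (5.26%) were called, 1032 (2.63%) lower and 1035 (2.64%) higher in siH19-2 cells. With any 1 of the 6 arrays left out, 464 to 1078 were called. The H19 call was lost without siH19-2 replicate 1 or 2 or NC replicate 2 or 3 (adjusted p = 0.053 to 0.067). The sources do not state that the 3 arrays of a group came from separate cultures, so each p reflects how far these arrays scatter, and that scatter may be technical. Of the markers chosen for the line, VIM, a mesenchymal filament gene, averaged 13.1 in both groups. The epithelial genes EPCAM and CDH1 averaged 4.52 and 5.53 in siH19-2 cells, against 4.52 and 5.49 in NC cells. Both lay below the median signal of 6.16 over all named probe sets, so their presence in the line was not shown. The epithelial keratins KRT8, KRT18 and KRT19 were brighter, at 9.63, 9.33 and 8.84 in siH19-2 cells and 9.74, 9.43 and 9.24 in NC cells. The mean level of the 6 line markers, EPCAM and CDH1 included, was 8.43 to 8.54 in siH19-2 arrays and 8.57 to 8.61 in NC arrays. Of the 6, KRT19 was called lower (log2 change -0.40, adjusted p = 0.032). KRT19 lost the call without any of the 3 NC arrays or without siH19-2 replicate 1 or 2, with adjusted p up to 0.125. Of 16 markers of other cell types, 0 were called by limma, with 1 (CD3E) at an unadjusted p under 0.05. The mean level was 5.77 to 5.79 in siH19-2 arrays and 5.70 to 5.74 in NC arrays for 5 leukocyte markers, and 5.69 to 5.76 in siH19-2 arrays and 5.68 to 5.69 in NC arrays for 4 endothelial markers. For 7 acinar and islet markers it was 5.73 to 5.89 in siH19-2 arrays and 5.68 to 5.84 in NC arrays. These 7 were uneven, with INS at 8.02 in siH19-2 cells and 7.96 in NC cells, and AMY2A at 4.21 and 3.87. The part of these marker values in the results below was not tested.

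Of the 10 genes, 4 were called, against the 5.26% of all probe sets. TNRC6A and AGO3 were lower in siH19-2 cells (2 of 10, against 2.63%), and AGO4 and AGO1 were higher (2 of 10, against 2.64%). The 10 genes lay in the brighter part of the array, where calls were more frequent, with 9.84% of the 19630 probe sets above the median signal called. The groups did not overlap for 7 of the 10 genes, against 28.3% of all probe sets, and 6 of the 10 had an unadjusted p under 0.05, against 20.3%. These were also more frequent among the 19630 brighter probe sets, where 7816 did not overlap and 5864 had an unadjusted p under 0.05. The 10 genes were chosen with earlier results of these data known, so these shares are descriptions and not tests. The median log2 change was 0.059 over the 10 genes and 0.016 over all named probe sets. With any 1 of the 6 arrays left out, 2 of the 10 genes were called, and these were TNRC6A and AGO4 each time.

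Among the TNRC6 scaffolds, TNRC6A stood lowest against its control. It had log2 signals of 8.37, 8.35 and 8.36 in the siH19-2 arrays, against 8.99, 8.98 and 9.06 in the NC arrays. The 3 siH19-2 arrays were nearly equal and lay far below every NC array. The difference was -0.65 (SE 0.037, adjusted p = 0.0016), which placed TNRC6A at rank 63 by p among all named probe sets and left 63.5% of the NC level (95% interval 59.6 to 67.7%). TNRC6B, the paralog with the same scaffold function, read 8.27, 8.16 and 8.21 in siH19-2 cells and 8.11, 8.10 and 8.10 in NC cells. Its groups did not overlap, but the difference of 0.11 (SE 0.040) was not called (adjusted p = 0.21). TNRC6C read 7.23, 7.22 and 7.23 in siH19-2 cells and 7.13, 7.15 and 7.20 in NC cells. Here too the siH19-2 arrays lay above the NC arrays by less than the test could call, with a difference of 0.071 (SE 0.036, adjusted p = 0.33).

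The divergence within the TNRC6 family was compared directly by taking the difference between paralogs on each array. The change of TNRC6A minus that of TNRC6B was -0.76 (SE 0.037), and that of TNRC6A minus TNRC6C was -0.73 (SE 0.010). In both pairs the siH19-2 arrays did not overlap the NC arrays. The exact permutation test (two-sided) gave p = 0.1, the smallest that 3 arrays against 3 allow, and 0.125 after adjustment over the 10 pairs compared, so no pair could reach 0.05. The changes of TNRC6B and TNRC6C differed by 0.037 (SE 0.038) and the groups overlapped (exact permutation p = 0.5, adjusted 0.5).

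**Figure D1:**
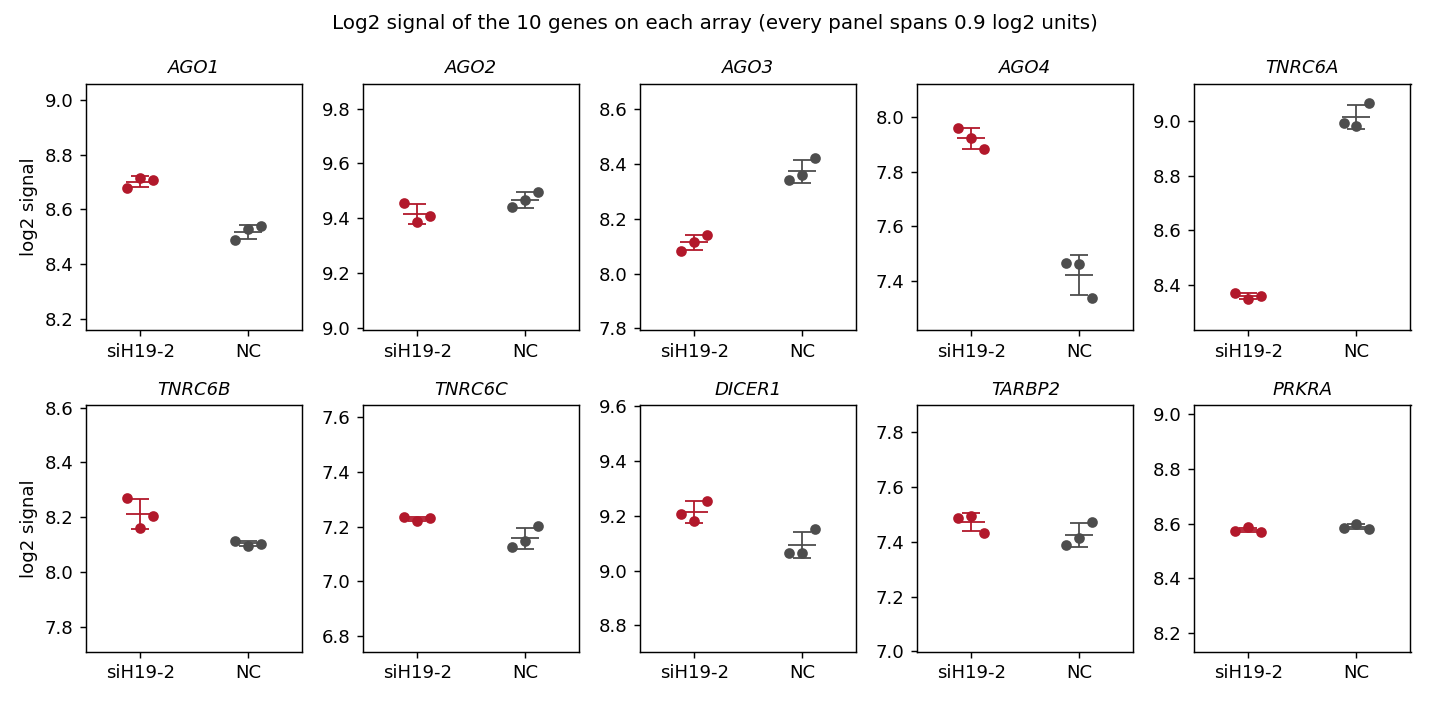
Log2 signal (vertical axes) of each of the 10 genes on the 3 siH19-2 and the 3 NC arrays, 1 point an array, with lines at the group mean ± SD (n = 3 each). TNRC6A and AGO3 lie lower and AGO4 and AGO1 higher in siH19-2 cells, whereas the groups overlap for AGO2, TARBP2 and PRKRA.

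Of the 4 Argonautes, AGO4 and AGO1 rose, AGO3 fell and AGO2 was not called. AGO4, an Argonaute that binds small RNAs without a known strong slicing activity, read 7.96, 7.92 and 7.88 in siH19-2 cells and 7.47, 7.46 and 7.34 in NC cells. All siH19-2 arrays lay above all NC arrays, and the log2 change was 0.50 (SE 0.050, adjusted p = 0.0066). This corresponded to 141% of the NC level, with a 95% interval of 130 to 154%. AGO1, another Argonaute that acts with TNRC6 proteins in translational repression and message decay, read 8.68, 8.71 and 8.71 in siH19-2 cells and 8.49, 8.53 and 8.54 in NC cells. The groups did not overlap, with a smaller change of 0.18 (SE 0.034, adjusted p = 0.041), or 113% of the NC level (95% interval 107 to 120%).

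AGO3, which also binds small RNAs, had signals of 8.08, 8.12 and 8.14 in siH19-2 cells and 8.34, 8.36 and 8.42 in NC cells. The groups did not overlap and the change was -0.26 (SE 0.039, adjusted p = 0.022), which left 83.5% of the NC level (95% interval 78.1 to 89.2%). The calls of AGO1 and AGO3 were both lost without any of the 6 arrays, with adjusted p of 0.094 to 0.157 for AGO1 and 0.052 to 0.088 for AGO3. After cyclic loess scaling AGO1 had an adjusted p of 0.054.

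AGO2, the slicing Argonaute, was not called. It read 9.46, 9.38 and 9.41 in siH19-2 cells and 9.44, 9.46 and 9.50 in NC cells, so the groups overlapped. Its difference was -0.051 (SE 0.037, adjusted p = 0.51), and the 95% interval of 90.6 to 103% of the NC level left out a change of the size seen for AGO4 or TNRC6A.

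Each of the 6 Argonaute pairs gave groups that did not overlap in the within-array difference. The widest separation was between AGO3 and AGO4, whose changes differed by -0.76 (SE 0.077). AGO1 and AGO3 differed by 0.44 (SE 0.017), AGO2 and AGO4 by -0.55 (SE 0.060), and AGO1 and AGO4, both higher in siH19-2 cells, by -0.32 (SE 0.063). AGO2 differed from AGO1 and AGO3 by less, with AGO1 minus AGO2 at 0.23 (SE 0.033) and AGO2 minus AGO3 at 0.21 (SE 0.036). All 6 pairs had the smallest exact permutation p of 0.1, adjusted 0.125. Across both families and the Dicer partners, 8 of the 10 pairs did not overlap. Many pairs share a gene, so they are not separate observations, and the share over other pairs of probe sets was not computed. No pair changed sign in 70 recalculations under other settings. For the 8 pairs without overlap, leaving out 1 array could not change the sign, so only the cyclic loess setting could have done so.

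**Figure D2:**
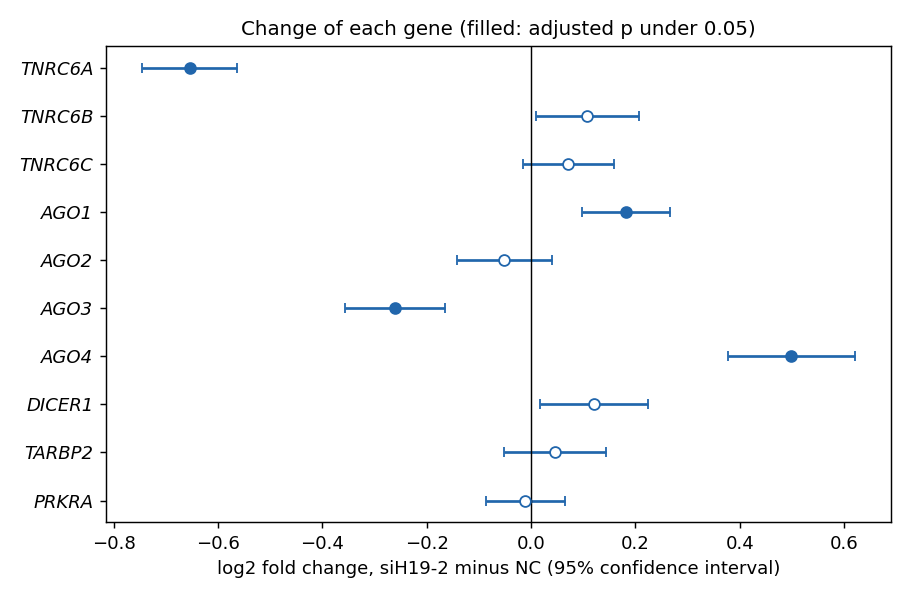
Log2 fold change (horizontal axis, siH19-2 minus NC) of the 10 genes with 95% intervals from limma. The 4 genes called at an adjusted p under 0.05 are TNRC6A at -0.65, AGO3 at -0.26, AGO1 at 0.18 and AGO4 at 0.50.

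The Dicer group showed no called change. DICER1, the nuclease that cuts precursor duplexes, read 9.21, 9.18 and 9.26 in siH19-2 cells and 9.07, 9.06 and 9.15 in NC cells. The siH19-2 arrays were all higher, but the change of 0.12 (SE 0.042) had an adjusted p of 0.19. TARBP2, which helps Dicer hand the duplex to an Argonaute, read 7.49, 7.49 and 7.43 in siH19-2 cells and 7.39, 7.42 and 7.47 in NC cells. Its groups overlapped (change 0.046, SE 0.040, adjusted p = 0.59). PRKRA, also called PACT and known as an activator of the kinase PKR, read 8.57, 8.59 and 8.57 in siH19-2 cells and 8.58, 8.60 and 8.58 in NC cells. It was the steadiest of the 10 genes, at 99.2% of the NC level with a 95% interval of 94.1 to 105%. The changes of TARBP2 and PRKRA differed by 0.057 (SE 0.033) and overlapped (exact permutation p = 0.2, adjusted 0.222).

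Antisense transcripts and a pseudogene share a name or sequence with some of these genes. DICER1-AS1, transcribed opposite DICER1, had a log2 change of 0.081 (SE 0.040, adjusted p = 0.33), and TNRC6C-AS1 one of 0.087 (SE 0.193, adjusted p = 0.85). TARBP2P1, a pseudogene of TARBP2, averaged 6.78 ± 0.159 in siH19-2 cells and 7.09 ± 0.081 in NC cells (SD, n = 3 each) without overlap, but its change of -0.32 was not called (adjusted p = 0.12). Probes of TARBP2 and its pseudogene may pick up each other's RNA, so neither value is certain to be separate.

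AGO4, AGO1 and AGO3 are neighbours on chromosome 1 in that order and on the same strand, whereas AGO2 and the TNRC6 genes lie elsewhere. Because the 3 neighbours did not move together, their surroundings were examined, a choice made after their values were seen. Before them in the order lay PSMB2, a proteasome subunit gene, C1orf216 and CLSPN, which encodes a checkpoint adaptor of DNA replication. PSMB2 was called lower at 11.21 ± 0.040 in siH19-2 cells and 11.55 ± 0.038 in NC cells (SD, n = 3 each), with a change of -0.33 (adjusted p = 0.011). Its call was lost without siH19-2 replicate 1 or any NC array, with adjusted p up to 0.062. CLSPN had a change of -0.25 (adjusted p = 0.052) and C1orf216 one of 0.070 (adjusted p = 0.40). On the other side, TEKT2, ADPRS and COL8A2 had changes of 0.029, 0.047 and 0.11, none of them called (adjusted p = 0.79, 0.70 and 0.21). Along these 9 genes, the called ones were therefore lower, higher, higher and lower.

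**Figure D3:**
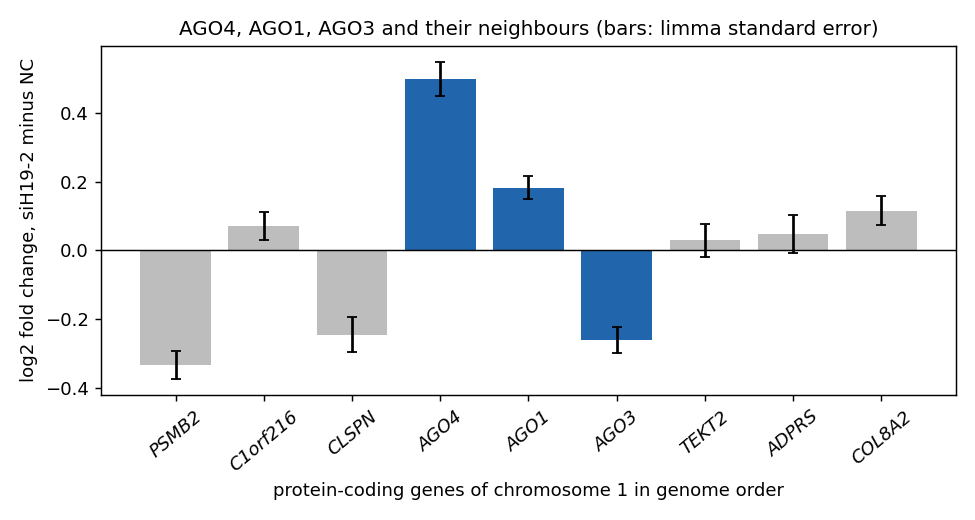
Log2 fold change (vertical axis, siH19-2 minus NC, with limma standard errors) of 9 protein-coding genes in their order along chromosome 1 (horizontal axis, order and not distance). AGO4 and AGO1 are higher in siH19-2 cells, whereas AGO3 beside them and PSMB2 are lower.

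The sequences before the starts of the 4 called genes are shown because the genes differed in direction, above all the 3 Argonautes that sit side by side. They are the 250 bases before each start in RefSeq (GRCh38.p14), printed 5′ to 3′ on the strand of the gene. Of the 10 genes, 9 matched an entry in the promoter table. Capitals mark matches, on either strand, to any of 6 motifs, namely GGGCGG (the GC box), CCAAT (the CAAT box), CACGTG (an E-box), TATAAA (the TATA box), CCGGAAG (an ETS core) and GCCATNTT (the YY1 motif).
TNRC6A at chr16:24729401-24729650, plus strand: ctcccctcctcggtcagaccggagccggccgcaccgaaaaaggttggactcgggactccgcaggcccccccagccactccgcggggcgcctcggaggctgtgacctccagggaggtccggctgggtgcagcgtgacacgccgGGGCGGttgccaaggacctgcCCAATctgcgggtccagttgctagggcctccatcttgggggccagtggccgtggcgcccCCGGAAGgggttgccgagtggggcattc
AGO3 at chr1:35930855-35931104, plus strand: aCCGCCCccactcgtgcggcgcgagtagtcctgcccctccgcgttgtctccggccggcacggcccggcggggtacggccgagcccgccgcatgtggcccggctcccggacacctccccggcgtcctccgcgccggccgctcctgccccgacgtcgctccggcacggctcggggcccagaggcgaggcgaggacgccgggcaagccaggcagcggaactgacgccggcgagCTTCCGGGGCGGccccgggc
AGO1 at chr1:35882959-35883208, plus strand: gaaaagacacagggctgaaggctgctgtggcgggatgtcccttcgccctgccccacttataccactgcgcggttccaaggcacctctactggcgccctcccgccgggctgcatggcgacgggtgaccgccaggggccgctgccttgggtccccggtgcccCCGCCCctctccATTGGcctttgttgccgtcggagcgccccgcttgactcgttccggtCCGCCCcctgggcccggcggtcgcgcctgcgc
AGO4 at chr1:35807766-35808015, plus strand: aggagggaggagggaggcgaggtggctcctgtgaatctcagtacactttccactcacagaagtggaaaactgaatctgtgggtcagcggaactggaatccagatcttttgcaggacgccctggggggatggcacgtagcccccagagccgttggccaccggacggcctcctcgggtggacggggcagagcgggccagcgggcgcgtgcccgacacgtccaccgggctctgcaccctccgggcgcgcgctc

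All 4 windows were rich in G and C, with 71.6% in TNRC6A, 80.0% in AGO3, 71.6% in AGO1 and 66.4% in AGO4, against a median of 58.0% over 35116 promoters. They held 21 CpG sites in TNRC6A, 41 in AGO3, 25 in AGO1 and 20 in AGO4. TNRC6A held a GC box that began 108 bases before the start, a CCAAT match at 87 bases and an ETS core at 28 bases. AGO3 held 2 GC boxes and an ETS core at 20 bases, which overlapped a GC box, and AGO1 held 2 GC boxes and a CCAAT match at 78 bases. AGO4 held none of the 6 motifs in this window. Over windows of the same length before all 35116 starts, 42.6% held GGGCGG, 32.0% CCAAT, 8.52% CCGGAAG, 10.7% TATAAA, 6.34% CACGTG and 3.86% GCCATNTT. The ETS core lay before both genes that were lower and before neither gene that was higher. With 4 genes this is only a description of the letters, and binding was not measured.

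Genes that work upstream and downstream of the 10 proteins were then read in 8 lists, 96 genes in all. Of these, 7 were lower and 13 were higher in siH19-2 cells (20.8%, against 5.26% of all probe sets), with a median log2 change of 0.046. The lists were chosen with earlier results of these data known, so their shares are descriptions and not tests. Most of the 96 genes lay in the brighter part of the array, where 9.84% of probe sets were called. The single lists below are set against 5.26%, but 9.84% is the nearer share for their bright genes. Of the 20 called pathway genes, 8 were called with each of the 6 arrays left out in turn, 5 lower and 3 higher. Without siH19-2 replicate 3 the list count was 12, and without any 1 of the other 5 arrays it was 8.

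Of the deadenylases that TNRC6 proteins recruit, 1 of 15 was lower and 2 were higher (20%, against 5.26% of all probe sets, median 0.056). CNOT11, a subunit of the CCR4-NOT complex, averaged 9.53 ± 0.032 in siH19-2 cells and 10.06 ± 0.023 in NC cells (SD, n = 3 each), a change of -0.53 (SE 0.035, adjusted p = 0.0022). TOB2, an adaptor of the same complex, was higher by 0.35 (adjusted p = 0.026), and PAN3, the partner of the PAN2 nuclease, by 0.20 (adjusted p = 0.035). CNOT6, a catalytic subunit, had a change of -0.18 that was not called (adjusted p = 0.077). CNOT11 was called with each array left out. PAN3 lost its call without any 1 of the 6 arrays (adjusted p up to 0.137), and TOB2 without any of the NC arrays or siH19-2 replicate 1 or 2 (up to 0.113).

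Decapping and P-body factors, which act after deadenylation, held 2 lower and 4 higher genes of 21 (median 0.052). That made 28.6% called, against 5.26% of all probe sets. DCP1A and DCP2, partners in the decapping enzyme, moved in opposite directions. DCP1A, the activator, averaged 8.45 ± 0.069 in siH19-2 cells and 9.03 ± 0.014 in NC cells (change -0.58, SE 0.045, adjusted p = 0.0033), whereas DCP2, the catalytic subunit, averaged 8.10 ± 0.043 in siH19-2 cells and 7.62 ± 0.013 in NC cells (change 0.48, SE 0.037, adjusted p = 0.0033; SD, n = 3 each). LSM14A, a P-body protein, was lower by 0.51 on the log2 scale (adjusted p = 0.0024), and EDC3, an enhancer of decapping, was higher by 0.41 (adjusted p = 0.0055). These 4 genes were called with each array left out. The other 2 called genes, PATL1 and EIF4E2, were higher by 0.18 and 0.21 and lost their calls without any 1 of the arrays (adjusted p up to 0.134 and 0.136).

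Of the cofactors that bind Argonautes, TNRC6 proteins or their targets, 1 of 18 was lower and 2 were higher (median 0.073). The share called was 16.7%, against 5.26% of all probe sets. FMR1, the fragile X RNA-binding protein, averaged 8.61 ± 0.066 in siH19-2 cells and 9.17 ± 0.031 in NC cells (SD, n = 3 each), a change of -0.56 (SE 0.046, adjusted p = 0.0039). RBM4, an RNA-binding protein with roles in splicing and translation, was higher by 0.42 (SE 0.039, adjusted p = 0.0055). PAIP2, a protein that binds poly(A)-binding protein, had a change of 0.18 that was not called (adjusted p = 0.071). FMR1 and RBM4 were called with each array left out.

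Among other double-stranded RNA-binding proteins, 1 of 8 was lower and 1 higher (25%, against 5.26% of all probe sets, median 0.032). STAU1, which binds double-stranded stretches in messages, averaged 9.40 ± 0.042 in siH19-2 cells and 9.88 ± 0.018 in NC cells (SD, n = 3 each), a change of -0.48 (SE 0.037, adjusted p = 0.0033) that was called with each array left out. ADARB1, an adenosine deaminase of RNA, was higher by 0.24 (adjusted p = 0.016), and lost its call without any NC array or siH19-2 replicate 1 or 2 (up to 0.088). EIF2AK2, the kinase PKR that PRKRA activates, had a change of -0.13 that was not called (adjusted p = 0.13).

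Upstream, 2 of the 7 genes of the microprocessor and of nuclear export were higher and none was lower (median 0.0082). This was 28.6% called, against 5.26% of all probe sets. DROSHA, the nuclease that cuts primary miRNA transcripts, read 8.97, 8.97 and 9.06 in siH19-2 cells and 8.80, 8.78 and 8.79 in NC cells, a change of 0.21 (SE 0.039, adjusted p = 0.040). DDX17, a helicase of the complex, was higher by 0.21 (SE 0.038, adjusted p = 0.039). Both lost their calls without any 1 of the arrays (adjusted p up to 0.140 and 0.147) and after cyclic loess scaling (adjusted p = 0.0550 and 0.0501). Of 12 chaperone and C3PO genes, which help to load the duplex and clear its passenger strand, 2 were lower and 2 higher (median 0.041). Here 33.3% were called, against 5.26% of all probe sets. FKBP4 fell by 0.23 (adjusted p = 0.023) and TSN, the translin subunit of C3PO, by 0.26 (adjusted p = 0.034), whereas the co-chaperones DNAJA2 and AHSA1 were higher by 0.29 and 0.20 (adjusted p = 0.019 and 0.029). These 4 calls were lost with most or all single arrays left out, and the list held 0 to 2 calls then.

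No gene of the PIWI clade was called by limma (0 of 4, against 5.26% of all probe sets). At an unadjusted p under 0.05 and by the methods' t-test the count was also 0. These germline Argonaute relatives had changes of 0.018 to 0.052. They were dim, with 17.5 to 30.2% of probe sets dimmer in NC cells, and calls were rarer among dim probe sets. Of the genes for tailing and decay of small RNAs, 0 of 11 were called by limma and 0 by the methods' t-test after adjustment, with 3 at an unadjusted p under 0.05. The largest change in that list was 0.16 for ZCCHC11, the uridylyltransferase TUT4 (adjusted p = 0.15).

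**Figure D4:**
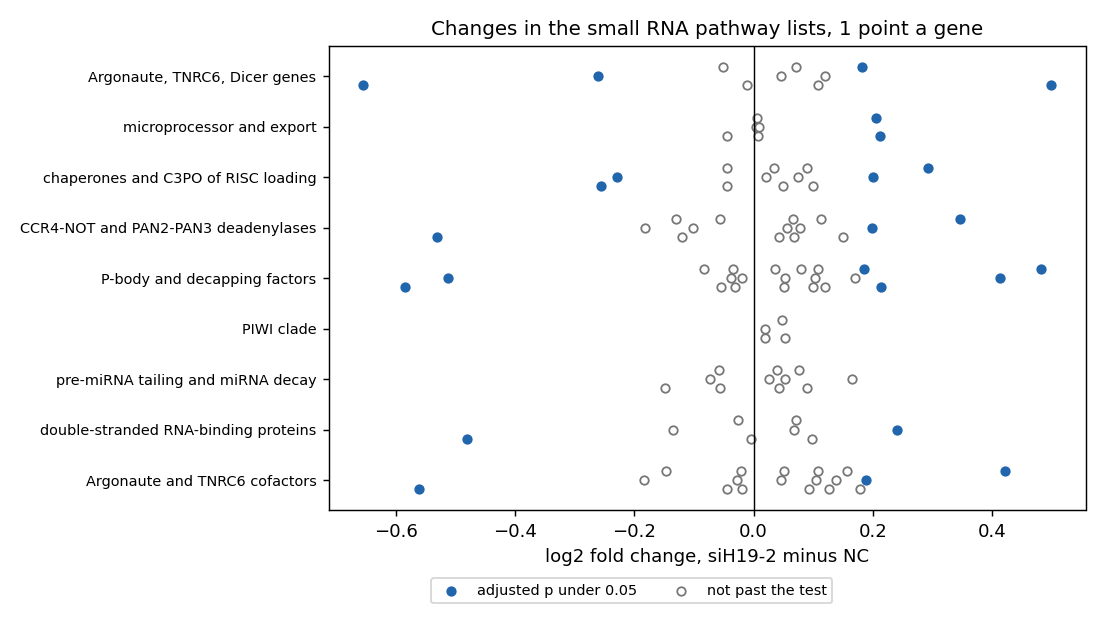
Log2 fold change (horizontal axis, siH19-2 minus NC) of each measured gene, 1 point a gene, for the 10 genes (top row) and the 8 lists of related genes. Filled points passed the test, among them TNRC6A at -0.65, DCP1A at -0.58 and FMR1 at -0.56 on the lower side and AGO4 at 0.50 and DCP2 at 0.48 on the higher side.

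The miRNAs that this machinery makes and uses have probe sets on the array, but the sources do not say whether these read the precursor or the mature RNA. Of 1550 miRNA genes, 6 were lower and 2 higher (0.516%, against 5.26% of all probe sets), with a median change of -0.011. With 1 array left out the count was 2 to 6 in place of 8. Calls were rarer among dim probe sets, since 943 of the 1032 lower and 988 of the 1035 higher lay above the median signal. How many miRNA genes were that dim was not counted, so their low share is not read as a trait of miRNA genes. The lowest p belonged to MIR4677, with 5.76, 5.94 and 5.73 in siH19-2 cells and 6.55, 6.49 and 6.56 in NC cells (change -0.72, SE 0.064, adjusted p = 0.0049). It was called with each array left out. MIR4521 had a change of -0.66 (adjusted p = 0.021), MIR765 one of -0.49 (adjusted p = 0.016) and MIR3661 one of -0.33 (adjusted p = 0.016). Each of these 3 lost its call without any of the NC arrays and without 1 or 2 of the siH19-2 arrays, with adjusted p up to 0.093, 0.064 and 0.071. The mature products of these 4 genes in RefSeq (GRCh38.p14) are shown with the seed, bases 2 to 8, in capitals, since the seed is the part by which an Argonaute finds its targets.
hsa-miR-4677-5p at chr1:243346188-243346209, plus strand: uUGUUCUUuggucuuucagcca
hsa-miR-4677-3p at chr1:243346225-243346246, plus strand: uCUGUGAGaccaaagaacuacu
hsa-miR-4521 at chr17:8186948-8186969, plus strand: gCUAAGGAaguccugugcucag
hsa-miR-765 at chr1:156936156-156936176, minus strand: uGGAGGAGaaggaaggugaug
hsa-miR-3661 at chr5:134225777-134225798, plus strand: uGACCUGGgacucggacagcug

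No seed was shared among these 5 mature sequences.

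The genes whose profiles over the 6 arrays were most like those of the 4 called genes were listed by Pearson's r. Only probe sets with a mean signal above the median were searched. This is a description without a test, since the 6 arrays form 2 groups and any gene that separates them scores high. For TNRC6A the most alike were VTA1 (r = 0.999), AMMECR1 and ABI2, with changes of -1.48, -0.99 and -0.37. For AGO4 they were TM9SF4, HARS (r = 0.999) and KPNA6, with changes of 0.27, 0.31 and 0.21. AGO3 was most like WAC (r = 0.998), GINS1 and RNF182, with changes of -0.26, -0.24 and -0.49, and AGO1 most like NQO1 (r = 0.999), MYH9 and DHRS3, with changes of 0.14, 0.17 and 0.18. The likeness to AGO1 did not follow the call, since NQO1 and MYH9 were not called (adjusted p = 0.0748 and 0.0502).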

How the data were processed

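Expression was measured on 6 Clariom D arrays, 3 of siH19-2 and 3 of NC cells. The authors deposited log2 signals per array, normalized between arrays, with 1 probe set a gene. The methods name limma for normalization, and the statistics section names JMP, so which gave these values is uncertain. The sources used here give no background correction, annotation release or genome build. A further deposited table supplied the gene names. Its log2 group means and differences, standardized means and test statistics (a score), p-values and −log10 p-values of the authors' own comparison were not used.

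Groups were taken from the sample titles. Changes were computed as siH19-2 minus NC by a two-sided test in limma 3.58.1 (R 4.3.3), with lmFit and then eBayes on 4 residual and 1.92 prior degrees of freedom, without a filter on dim probe sets, and adjusted over the 39261 named of 39334 probe sets. The fit was tested on simulated data. Differences between paralogs were taken on each array and tested by exact permutation. The number of arrays limits the precision. The probe set numbers of all 10 genes equalled the gene IDs of their symbols in the reference table (GRCh38.p14), and TUT4, TUT7 and ADPRS stand under older names.

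The genes and lists were chosen with earlier results of these data known. Named were the 10 genes, up to 4 genes of each list by smallest p, the antisense and pseudogene relatives, H19, up to 4 miRNA genes, and the 3 profiles most like each called gene. Those profiles were sought among probe sets above the median signal. The chromosome 1 neighbours, PATL1 and EIF4E2, and the promoters shown were chosen after values were seen. Alternatives were the methods' t-test, an intensity trend with a robust prior, 2 further scalings (75th percentile and cyclic loess), probe sets above the median only, stricter and looser thresholds, a block for replicate number, and leaving out each array. The values of 1 further gene of the cofactor list are not reported here.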

Additional observations from a re-analysis of the deposited data

How the results depend on the processing

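None of the 10 genes changed direction in any of 13 alternatives, but many of these could not show a reversal. The t-test, Bonferroni-Holm, the intensity trend, the brighter probe sets and the replicate block leave the change as it was. Leaving out 1 array cannot reverse a gene whose groups do not overlap. AGO2, TNRC6B, TNRC6C, DICER1, TARBP2 and PRKRA kept their side of the threshold in all 13, whereas TNRC6B and DICER1 passed an unadjusted p under 0.05. Centring on the 75th percentile called the same 4 genes and 2070 probe sets. Cyclic loess called 1914 probe sets (1131 lower and 783 higher, against 1032 and 1035) and 3 of the 10 genes. Over the brighter probe sets 4058 were called, 3449 with an intensity trend and robust prior, and 2189 by the t-test of the methods once adjusted by Benjamini-Hochberg, with 4 of the 10 genes each time. Bonferroni-Holm left 43 probe sets, 0 of the 10 genes (TNRC6A at 0.0982) and 0 of the 96 pathway genes, against 4 and 20. At an unadjusted p under 0.05, 7963 probe sets, 6 of the 10 genes and 42 pathway genes passed, and 30, 0 and 0 with an absolute log2 change above 1 as well. Leaving out 1 array gave 464 to 1078 probe sets, 2 of the 10 genes and 8 to 12 pathway genes, from fewer arrays, and a median change of the 10 genes of 0.041 to 0.082. H19 then had an adjusted p of 0.036 to 0.067. Deviations of same-numbered arrays correlated at 0.0060, 0.0099 and 0.0052, and those of other arrays of the 2 groups at -0.021 to 0.013. No pairing by replicate number was therefore visible. These correlations run over all named probe sets, many of them dim, so they cannot exclude a shared culture or run. With the replicate number as a block, 74 probe sets were called, with 0 of the 10 genes and 0 pathway genes, at adjusted p of 0.0504 for TNRC6A, 0.056 for AGO4, 0.094 for AGO3, 0.138 for AGO1 and 0.091 for H19. The cause of these shifts was not tested. No detection calls were used, so dim signals such as those of the PIWI clade could not be told from background.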
